A study of Mus musculus with 8 samples.

Results

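The regions described here are stretches of the mouse genome next to, but outside, annotated genes that lay under peaks of trimethylated lysine 36 of histone H3 (H3K36me3) in both wild-type (WT) libraries. The measurement was chromatin immunoprecipitation and sequencing (ChIP-seq) in bone marrow stromal cells, adherent marrow cells that include progenitors of bone and fat, grown from mice of the C57BL/6J strain. All groups carried a floxed Setd2 gene. The knockout (KO) cells received a lentivirus for Cre, which deletes the floxed part, and the WT cells received a lentivirus for GFP. Both were selected with puromycin at 2 µg/ml for 4 days at passage 2 and fixed in 1% formaldehyde for 10 min. Each genotype had 2 H3K36me3 libraries and 1 Input and 1 IgG library as controls. The age of the mice, the promoter driving Cre and the share of cells with the deletion were not stated in the labels. Loss of the mark in every cell and loss in a share of the cells cannot be told apart in such bulk samples. The labels do not say whether the paired libraries of each genotype were made from different cultures, and the spread between them may be technical.

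A region was an interval of at least 200 bp covered by a peak in both WT lists called against Input. It was kept if it lay on an autosome, shared no base with any annotated gene and was within 10 kb of a protein-coding gene (RefSeq, GRCm38.p6). This rule found 8897 regions holding 5.45 Mb, which were 5.02% of the 177351 autosomal WT regions and 3.84% of their 142 Mb. Of the other WT regions, 158257 lay inside protein-coding genes, 3836 ran across the edge of a protein-coding gene, 3260 lay in or touched another annotated gene and 3101 lay farther from genes. The WT peaks chose the regions, so the WT coverage of a region is given only as a description. The KO lists took no part in the choice. At the limits of the rule, 22 regions of 198 bp and 9 of 199 bp fell just outside it, while 16 of 200 bp and 5 of 201 bp were kept. The farthest region kept lay 9984 bp from Gm15319, and the nearest one left out lay 10020 bp from Zfp335.

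Setd2 is the enzyme that adds the third methyl group to lysine 36. It binds the tail of RNA polymerase II while the polymerase elongates, so the mark builds up over the body of transcribed genes and toward their 3′ ends. Polymerase does not stop at the annotated end of a gene: it goes on transcribing past the site where the RNA is cut and polyadenylated, until the exonuclease Xrn2 and other termination factors release it. H3K36me3 just beyond a gene end is therefore a place where transcription past that end is possible. RNA was not measured in these samples, and a gene end longer than the one annotated would leave the same peaks.

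Few regions reached the promoter of a protein-coding gene. Of 20084 promoter windows of protein-coding genes (the 250 bases before an annotated start), 9 held at least 100 bases of a region. For 4 of these the end of another gene, transcribed in the same direction, lay within 1 kb on the far side of the region, so that WT peaks beyond the end of 1 gene came within 250 bases of the start of the next. They are shown because a position that counts as upstream of 1 gene is downstream of another, and they were chosen after their values had been seen. The bases inside the region are in capitals, each sequence is 5′ to 3′ on the gene's own strand, and the sequences are from RefSeq (GRCm38.p6).
Exosc6: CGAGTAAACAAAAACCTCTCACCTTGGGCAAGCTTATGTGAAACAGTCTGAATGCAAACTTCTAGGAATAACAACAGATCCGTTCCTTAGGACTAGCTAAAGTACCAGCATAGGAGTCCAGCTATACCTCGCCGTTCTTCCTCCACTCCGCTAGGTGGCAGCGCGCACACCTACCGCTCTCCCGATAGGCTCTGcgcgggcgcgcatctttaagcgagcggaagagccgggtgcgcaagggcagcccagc
Usp21: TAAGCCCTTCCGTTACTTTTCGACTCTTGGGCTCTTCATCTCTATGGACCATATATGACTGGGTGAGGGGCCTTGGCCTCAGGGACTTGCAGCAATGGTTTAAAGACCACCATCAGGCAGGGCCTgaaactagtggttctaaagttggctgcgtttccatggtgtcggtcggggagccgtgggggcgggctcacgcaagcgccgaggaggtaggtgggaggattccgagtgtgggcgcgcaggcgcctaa
1700029I15Rik: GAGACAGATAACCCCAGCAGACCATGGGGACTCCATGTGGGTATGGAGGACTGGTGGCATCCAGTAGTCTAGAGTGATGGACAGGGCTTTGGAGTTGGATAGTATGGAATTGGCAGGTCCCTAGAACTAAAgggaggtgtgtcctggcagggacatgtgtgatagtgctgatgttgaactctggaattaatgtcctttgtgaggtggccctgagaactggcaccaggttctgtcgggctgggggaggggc
Fermt3: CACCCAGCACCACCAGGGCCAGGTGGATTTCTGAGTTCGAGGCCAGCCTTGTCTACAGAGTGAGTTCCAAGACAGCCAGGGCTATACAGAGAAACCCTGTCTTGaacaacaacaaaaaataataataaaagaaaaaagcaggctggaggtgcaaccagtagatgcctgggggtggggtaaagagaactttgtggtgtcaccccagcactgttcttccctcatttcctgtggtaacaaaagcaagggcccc

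The Exosc6 window (chr8:111056089-111056338, plus strand) lies before the gene of an RNA exosome subunit, and 194 of its bases were inside the region, whose far edge lay 321 bp from the end of Aars, the cytosolic alanyl-tRNA synthetase gene. The Usp21 window (chr1:171287962-171288211, minus strand) lies before the gene of a deubiquitinase and held 125 such bases, in a region 135 bp from the end of Ufc1, the conjugating enzyme of the ubiquitin-like protein Ufm1. The 1700029I15Rik window (chr2:92382668-92382917, plus strand) held 131 such bases, in a region 523 bp from the end of Pex16, a peroxisome assembly gene. The Fermt3 window (chr19:7019470-7019719, minus strand) lies before the gene of an integrin activator of blood cells and held 104 such bases, in a region 470 bp from the end of Stip1, a co-chaperone gene. Windows before Exosc6 and Usp21 held 17 and 14 CG dinucleotides, and those before 1700029I15Rik and Fermt3 held 1 each. The median over the 9 windows was 1 CG dinucleotide, beside a median of 10 over all 20084 windows. The letters TATAAA were found on either strand in 1 of the 9 windows (11.1%), beside 11.7% of all windows. None of the 9 windows had a KO peak in either library, while WT peaks covered a mean of 76.5% and 82.4% of their bases in WT replicates 1 and 2. Over all promoter windows the means were 1.16% and 1.43% in KO replicates 1 and 2 and 2.49% and 2.45% in WT replicates 1 and 2.

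The regions lay past gene ends far more often than before gene starts. The strand of the nearest gene was known for 7259 regions (81.6%), and 6505 of them were downstream of that gene, against 754 upstream. Downstream regions thus made up 89.6% of the stranded regions and 91.2% of their bases, while downstream bases made up 48.6% of the stranded gene-free bases within 10 kb of a gene, called the flanks here. For 1638 regions, among them the 319 on chromosome 18, the strand of the nearest gene was not used.

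Downstream regions were also nearer and wider. Their median distance from the gene was 1501 bp, against 3680 bp for upstream regions, and their median width was 542 bp, against 465 bp. Within 1 kb of the gene edge lay 37.5% of the downstream regions and 11.1% of the upstream ones. Within 5 kb the shares were 87.8% and 64.7%. Over all 8897 regions the width ranged from 200 to 4489 bp, with a median of 532 bp and quartiles of 389 and 716 bp, and the distance had a median of 1644 bp. For 4303 downstream regions (66.1%) another WT region lay within 1 kb toward the gene, with a median gap of 520 bp over all downstream regions.

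**Figure D1:**
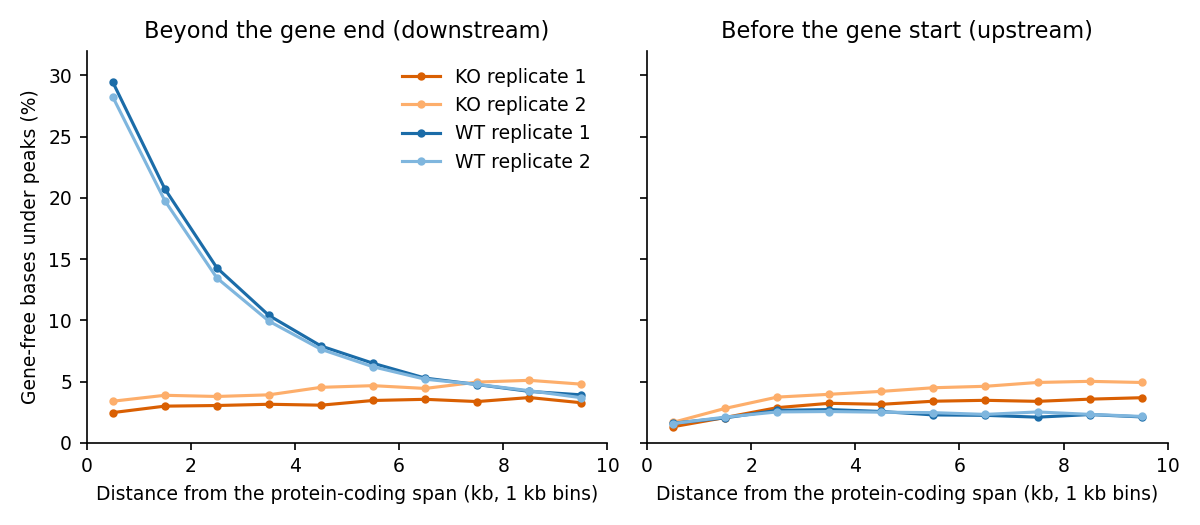
Percent of gene-free flank bases under H3K36me3 peaks (y axis) by distance from the nearest protein-coding gene edge in 1-kb bins (x axis, kb), downstream and upstream, with 1 line per library (2 KO, 2 WT). WT coverage of the first downstream kb was 29.5% and 28.2% and declined with distance. KO coverage was 2.47% and 3.39% in the first downstream bin and 3.27% and 4.79% in the last. Its highest downstream value was 5.10%, in KO replicate 2 at 8 to 9 kb.

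The plot of coverage by distance shows the same decline past gene ends in WT over all flank bases, whether or not they belong to a region. In the first kb past gene ends, 2.47% and 3.39% of bases lay under peaks in KO replicates 1 and 2, against 29.5% and 28.2% in WT replicates 1 and 2. At 4 to 5 kb the values were 3.07% and 4.53% in KO, against 7.90% and 7.63% in WT. In the last kb they were 3.27% and 4.79% in KO and 3.91% and 3.68% in WT, where the libraries of the 2 genotypes overlapped. The first kb before gene starts had 1.31% and 1.67% in KO and 1.60% and 1.57% in WT, and the libraries overlapped there too. At 9 to 10 kb before gene starts, KO libraries had 3.68% and 4.93%, above the 2.12% and 2.15% of WT libraries.

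Sorting the flanks by the direction of both neighbouring genes gave the same order in both WT libraries. Gaps between convergent genes, which are downstream of both neighbours, held 2498 regions, or 93.7 per Mb. Their coverage was 3.27% and 4.32% in KO and 14.8% and 14.2% in WT. The downstream side of gaps between genes in tandem held 3022 regions, or 72.2 per Mb, with 3.03% and 4.14% in KO and 11.6% and 11.1% in WT. The upstream side of the same kind of gap held 431 regions, or 10.8 per Mb, with 2.84% and 3.83% in KO and 2.48% and 2.59% in WT. Gaps between divergent genes, which are upstream of both, held 209 regions, or 6.34 per Mb, with 2.83% and 3.89% in KO and 1.97% and 1.95% in WT. In KO the 4 kinds of flank differed by less than the gap between the 2 KO libraries.

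Of the 754 upstream regions, 214 (28.4%) lay within 10 kb of the end of a second protein-coding gene as well, as in the 4 promoter windows above. A further 209 lay between divergent genes, 114 had a neighbour of unknown strand, and for 217 the nearest gene end was more than 10 kb away.

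Compared over the 4 libraries, downstream flanks had 3.13% and 4.21% of their bases under peaks in KO, against 12.9% and 12.3% in WT, a ratio of KO to WT of 0.291. Upstream flanks had 2.88% and 3.84% in KO and 2.24% and 2.27% in WT, a ratio of 1.49. Downstream coverage was therefore 1.09 and 1.10 times the upstream coverage in the KO libraries, against 5.74 and 5.43 times in the WT libraries. Gene-free bases beyond 10 kb had 2.25% and 2.97% in KO and 1.02% and 1.05% in WT. Flanks held 18.2% and 18.3% of all covered gene-free bases in KO and 54.2% and 52.6% in WT, while they are 14.3% of all gene-free bases. The genotypes did not overlap in any of these measures. With 2 against 2 libraries, p was 0.333 for each by exact two-sided permutation, the smallest value this design can give.

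The peak lists differed between genotypes as a whole, with 116865 and 151836 autosomal peaks covering 2.59% and 3.40% of bases in KO, against 236624 and 240335 peaks covering 9.01% and 8.75% in WT. The lists give no read counts, so the depth of the libraries is unknown. The part of depth in these differences was not tested. Against the IgG control instead of Input, downstream coverage was 2.06% and 2.76% in KO and 10.5% and 10.1% in WT, and it was 1.08 and 1.08 times the upstream coverage in KO and 5.71 and 5.42 times in WT. Across the span of marker genes, peaks covered a mean of 2.55% and 1.16% in KO and 47.1% and 45.0% in WT for 8 stromal markers, 1.64% and 9.12% in KO and 32.6% and 46.1% in WT for 6 haematopoietic markers, and 4.53% and 6.34% in KO and 9.65% and 6.69% in WT for 4 endothelial markers. Of the stromal markers Thy1 had no peak in any of the 4 libraries. Of the haematopoietic markers, those of macrophages and other myeloid cells were covered in both WT libraries: Lyz2 had 0% and 11.4% in KO and 74.9% and 87.6% in WT, Csf1r had 2.74% and 2.98% in KO and 45.1% and 43.5% in WT, and Cd68 had 0% and 0% in KO and 37.0% and 71.3% in WT. Itgam had 21.7% to 23.9% in WT and Ptprc 14.2% to 15.0%, while the B cell gene Cd79b had 0% and 31.8% in KO and 0% and 38.2% in WT. Regions flanked 2 of the 18 markers, Pdgfra and Pdgfrb. The part of haematopoietic cells in the results was not tested.

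Among 14169 genes of known strand that own a downstream flank, 3456 (24.4%) had at least 1 region past their end. Upstream regions were found for 564 of 14262 genes (3.95%), and 182 genes had both. A single downstream region was the rule for 1873 genes, while 187 genes had 5 or more and the highest number was 10. Genes with a downstream region were longer, with a median of 26.8 kb against 14.7 kb for the other genes with a downstream flank. Their own spans were covered for a mean of 2.90% and 3.70% in KO and 49.1% and 47.7% in WT. In the other genes the means were 3.09% and 3.89% in KO and 19.7% and 19.1% in WT.

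Flank coverage in WT followed the coverage of the gene itself, measured in the other WT library. Of genes with no peak in WT replicate 1, the downstream flanks were covered for 1.45% in WT replicate 2, and of genes covered over more than 75% they were covered for 37.7%. With the libraries exchanged, the values were 1.55% and 37.5% in WT replicate 1. Along the same bins KO coverage stayed between 2.61% and 3.52% in replicate 1 and between 3.58% and 4.76% in replicate 2. The bins also differed in gene length, with a median of 4.03 kb for genes with no peak in WT replicate 1. Its other bins had medians of 18.7 to 55.1 kb, and the part of gene length was not tested. The share of genes with a downstream region was 2.48% among genes with no peak in WT replicate 1 and 41.8% among genes covered for 25 to 50%. It was 48.8% for 50 to 75% and 46.5% above that. WT replicate 1 also took part in choosing the regions, so this share is a description and not a measure in the other library.

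**Figure D2:**
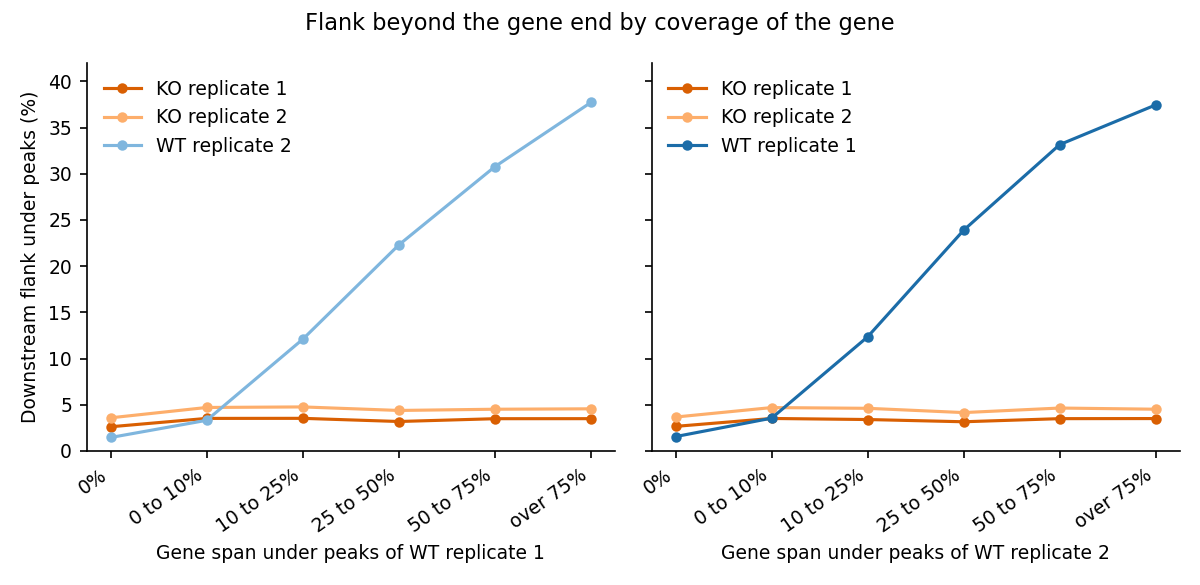
Percent of downstream flank bases under peaks (y axis) for genes grouped by the share of their own span covered in 1 WT library (x axis, %), with lines for the 2 KO libraries and for the WT library that did not group the genes. The left panel groups genes by WT replicate 1 and the right panel by WT replicate 2. The KO lines stay between 2.61% and 4.76%, while the WT line reaches 37.7% (left) and 37.5% (right).

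The genes with the most region bases past their end were Itm2b, D130040H23Rik, Sucla2, Atpsckmt, Rcn2, Nsun2, Rab22a, Arid4b, Dennd5a and Cops7a, with 4 to 7 regions each. Itm2b (chr14:73362226-73385289, minus strand), which codes for a membrane protein whose human form is mutated in familial dementias, led with 7 regions and 7449 bp. In the 10 kb past its end, 0% and 0% of bases lay under peaks in KO replicates 1 and 2, against 85.6% and 86.4% in WT replicates 1 and 2. Its longest region covered 4117 bp and began 1813 bp past the gene.

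Nsun2 (chr13:69612016-69635780, plus strand), an RNA cytosine methyltransferase, had 7 regions, with 5.60% and 2.32% of its downstream window covered in KO and 84.0% and 72.5% in WT. Rab22a (chr2:173659836-173702186, plus strand), a small GTPase of endosomes, had 4.97% and 5.31% in KO and 74.3% and 78.1% in WT. Arid4b (chr13:14063609-14199603, plus strand), a subunit of the Sin3 histone deacetylase complex, had 9.50% and 5.39% in KO and 84.1% and 77.8% in WT. These windows had KO values above the 3.13% and 4.21% of all downstream flanks in at least 1 KO library, but KO and WT libraries stood far apart.

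Rcn2, a calcium-binding protein of the endoplasmic reticulum, had 9.36% and 9.78% in KO and 72.1% and 78.1% in WT. Dennd5a, an activator of Rab GTPases, had 0% and 11.3% in KO and 66.0% and 80.5% in WT. Cops7a, a COP9 signalosome subunit, had 5.96% and 29.5% in KO and 68.0% and 67.0% in WT. For Cops7a the 2 KO libraries differed by more than 20 points, as they did for Atpsckmt, a methyltransferase of the mitochondrial ATP synthase, which had 5.48% and 29.1% in KO and 81.7% and 76.7% in WT.

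Sucla2, a subunit of succinyl-CoA synthetase of the citric acid cycle, had 20.9% and 28.7% in KO and 87.9% and 87.0% in WT. D130040H23Rik had 26.3% and 39.8% in KO and 72.3% and 96.6% in WT. In both genes each KO library kept more than 20% of the window under peaks, and the groups still did not overlap. Since WT peaks placed these genes at the head of the order, the differences between KO and WT are given without a test.

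**Figure D3:**
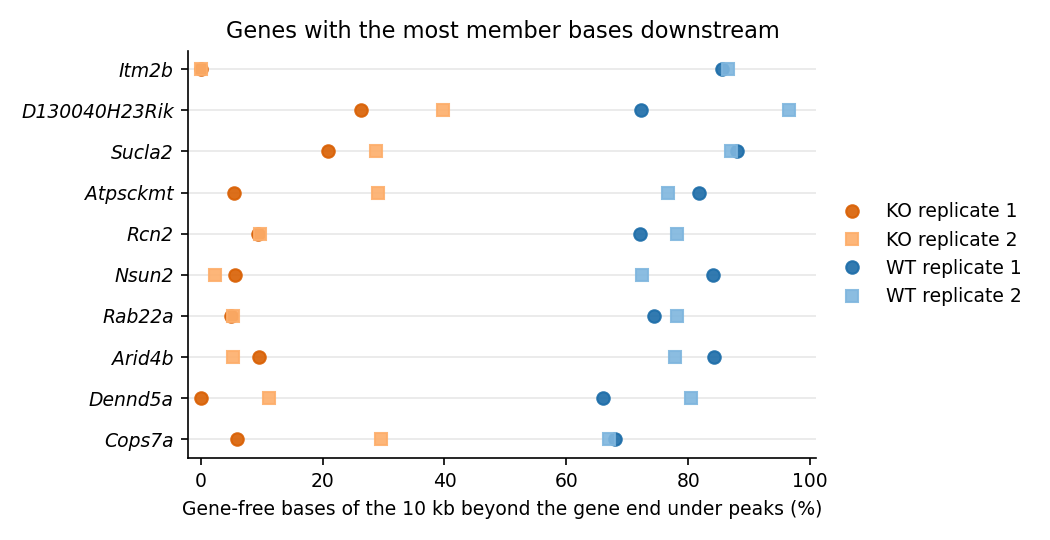
Percent of the 10-kb window past the gene end under peaks (axis in %) for the 10 genes with the most region bases downstream, with 1 point per library (2 KO, 2 WT). KO points run from 0% to 39.8%, and WT points from 66.0% to 96.6%.

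Upstream, the most region bases belonged to Gm32719, Gm40469, Gm7030, LOC115488002 and Tgif1. Tgif1 (chr17:70844205-70853532, minus strand), a homeobox repressor of TGF-beta signalling, had 3 upstream regions and 1 downstream. Its upstream window was covered for 0% and 0% in KO and 37.4% and 69.3% in WT. The upstream window of Gm32719 was covered for 41.5% and 24.8% in KO and 72.7% and 59.7% in WT, and that of LOC115488002 for 27.8% and 26.0% in KO and 52.8% and 72.6% in WT. In both windows each KO library stood above its value past Itm2b, Rab22a and Nsun2. The number of genes with at least 5000 bp of region was 2 upstream, against 32 downstream.

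Gene groups were counted by whether a gene had a region past its end, against 24.4% of all genes with a downstream flank. Of 19 genes of 3′ end processing and termination, 11 (57.9%) had 1. They included Papola and Papolg, poly(A) polymerases, Nudt21 and Cpsf6, subunits of cleavage factor I, Clp1 of cleavage factor II and Xrn2, the termination exonuclease. Past Papola (chr12:105784677-105838949, plus strand), 5 regions held 4104 bp, and its window was covered for 0% and 0% in KO and 60.6% and 54.6% in WT. The window past Papolg was covered for 9.71% and 15.7% in KO and 53.2% and 45.2% in WT.

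Of 19 elongation genes, 5 (26.3%) had a downstream region, a share near that of all genes. Past Ell2 (chr13:75707484-75772361, plus strand), an elongation factor, 4 regions held 3081 bp, and the window was covered for 0% and 0% in KO and 49.8% and 41.8% in WT. Past Supt4a, a subunit of the elongation factor DSIF, the window was covered for 0% and 6.97% in KO and 31.5% and 33.4% in WT.

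Of 51 cytosolic ribosomal protein genes, 27 (52.9%) had a downstream region. Past Rpl37 (chr15:5116613-5119140, plus strand) 4 regions held 4333 bp, more than the 2.53 kb of the gene itself, and the window was covered for 0% and 0% in KO and 54.1% and 48.2% in WT. Past Rpl6 the window was covered for 0% and 0% in KO and 41.3% and 43.2% in WT. Processed copies of ribosomal protein genes are common in the mouse genome, and the treatment of reads that align to several places is not stated in the labels.

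Of 21 stromal and matrix genes, 8 (38.1%) had a downstream region. Timp2 (chr11:118301061-118355411, minus strand), an inhibitor of matrix metalloproteinases, had 4 regions, and its window was covered for 0% and 0% in KO and 71.4% and 40.1% in WT. P4hb, the protein disulfide isomerase that is also a subunit of collagen prolyl hydroxylase, had 3 regions, and its window was covered for 7.74% and 0% in KO and 38.5% and 28.8% in WT. None of 10 regulators and marker genes of bone and fat cells had a downstream region. Runx2, the bone cell transcription factor, Col1a1, the main collagen gene of bone, and Lbp, the lipopolysaccharide-binding protein gene, had no region on either side. The lists were chosen with earlier results of these data known, and no share is called particular to a list.

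Peaks of the KO libraries covered little of the 8897 regions, but more than of the flank bases without a WT peak. They covered 6.16% of the region bases in KO replicate 1 and 7.58% in KO replicate 2, a mean of 6.87% ± 1.01 (SD, n = 2). In flank bases without a WT peak they covered 2.67% and 3.59%, so that the regions had 2.31 and 2.11 times as much. WT regions inside protein-coding genes had 4.93% and 6.13%, those across a gene edge 5.65% and 6.81%, those in or touching another gene 13.2% and 15.4% and those far from genes 24.99% and 27.0%. The gene-flanking regions thus lay near the regions in genes and well below the regions far from genes in both KO libraries.

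**Figure D4:**
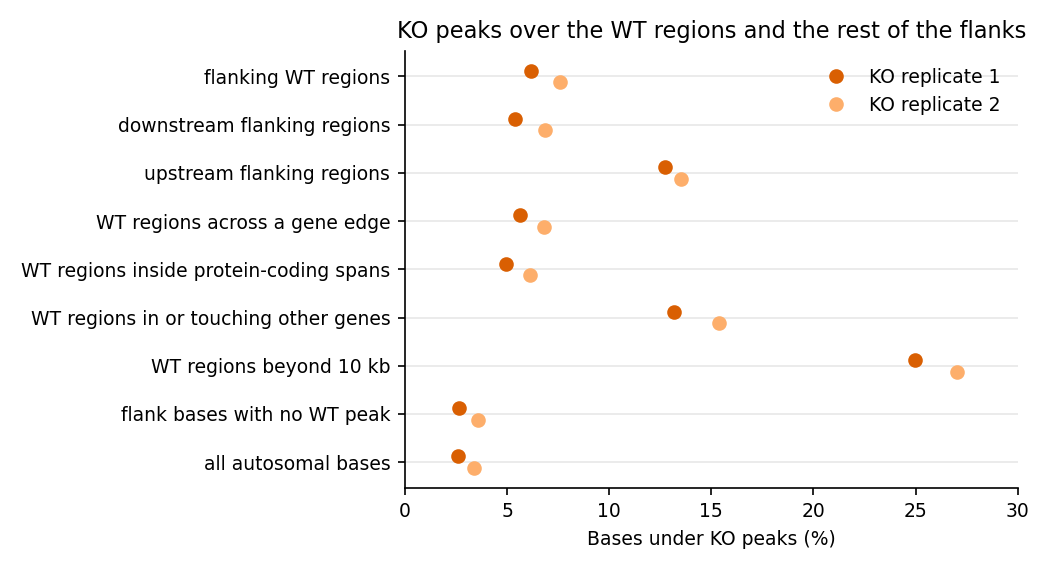
Percent of bases under KO peaks (axis in %) in sets of WT regions, in flank bases without a WT peak and in all autosomal bases, with 1 point per KO library. The flanking regions stand at 6.16% and 7.58%, the upstream ones at 12.7% and 13.5%, the regions far from genes at 24.99% and 27.0% and the flank bases without a WT peak at 2.67% and 3.59%.

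KO coverage differed by side and distance among the regions. Downstream regions had 5.41% and 6.88%, and upstream regions had 12.7% and 13.5%. Regions less than 1 kb from the gene had 4.28% and 5.52%, those at 1 to 2 kb 4.19% and 6.19%, those at 2 to 5 kb 6.86% and 7.84% and those at 5 to 10 kb 13.5% and 15.4%. Regions in divergent gaps had 14.6% and 16.3%. The difference between the nearest and the farthest of these distances was larger than the gap between the 2 KO libraries. No KO base was found in 7101 regions (79.8%), and 324 (3.64%) were touched in both KO libraries. Of these, 168 were covered for at least 50% in both, and 22 were covered whole in both.

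The regions differed in whether they were also called against IgG. Of the 8897 regions, 6456 (72.6%) were touched by a peak in both WT lists called against IgG, and 1203 (13.5%) in neither. Regions found in both IgG lists had a KO coverage of 5.55% and 7.05% against Input, and regions found in neither had 10.8% and 11.6%. With the KO peaks called against IgG, the values were 3.89% and 4.94% for regions in both and 3.69% and 4.22% for regions in neither. The higher KO coverage of regions in neither list was thus seen against Input only. Of the 324 regions touched in both KO libraries, 98 (30.2%) were in neither WT IgG list. Downstream regions made up 89.9% of the stranded regions found in both IgG lists and 85.6% of those found in neither.

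Of the 942 regions of at least 1000 bp, 666 (70.7%) had no KO base, beside 79.8% of all regions, and KO peaks covered 6.10% and 7.50% of their bases. The longest region, of 4489 bp (chr1:135296724-135301212), began 322 bp past Timm17a, a subunit of the mitochondrial import channel. It had no KO base, like the region of 4117 bp past Itm2b. A region of 4043 bp past Prpsap2, a partner of phosphoribosyl pyrophosphate synthetase, was covered for 0% and 16.3% in KO. Regions of 3940 bp near Zfp992 and 3766 bp before Gm32719 were covered for 31.7% and 57.5%, and for 78.4% and 0%, in KO replicates 1 and 2. Against IgG, the region before Gm32719 was covered for 99.6% and 92.1% in KO and 0% and 100% in WT, so that its KO replicate 2 was empty against Input and nearly full against IgG.

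Of the regions of at least 500 bp, the most covered in KO lay before Cxcl1, a neutrophil chemokine gene, past Odf2l, near Slc6a18, before Cd44, a hyaluronan receptor gene, and past Manba, the beta-mannosidase gene. The region 8784 bp before Cxcl1 was covered for 100% in both KO libraries, and so was the one 9063 bp past Odf2l. The region 1615 bp before Cd44 had 98.8% and 100% in KO. All 5 were covered for 0% in each of the 4 lists called against IgG, in KO and in WT. The part of the Input control in these 5 was not tested.

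The change was tested in every flank, whether or not it held a region, on the percent of gene-free bases under peaks in the 10 kb beside each edge of a gene. Of 32954 such windows, 7606 had a mean of at least 10% over the 4 libraries and were tested with limma. Coverage was lower in KO in 5026 windows (66.1% of those tested) and higher in 80 (1.05%) at an adjusted p below 0.05, and the median difference was -32.22 percentage points. The filter on the mean lets in windows through the higher genotype alone: 3649 of the 7606 were at 0% in both KO libraries, passed through WT and could only fall, so the share of falls describes the windows kept and not all flanks. Without the filter, 3753 of 24797 windows were lower and 36 higher. Among downstream windows kept by the filter, 3195 of 4601 fell (69.4%) and 27 rose, and among upstream windows 915 of 1549 fell (59.1%) and 30 rose. The windows were not cut where another gene was nearer, so an upstream window can hold bases past the end of a neighbouring gene. Over all upstream bases given to their nearest edge, coverage was higher in KO, with a ratio of KO to WT of 1.49. Windows of neighbouring genes can also share bases, so their calls are not independent. The difference between the 2 sides was not tested in this fit.

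Without KO replicate 1 or without KO replicate 2, limma called 0 windows in either direction, while 3550 and 3669 were lower and 84 and 75 higher at an unadjusted p below 0.05. The lone KO library was then assumed to vary like the WT pair. Without WT replicate 1 or 2, the spread came from the KO pair alone. Windows at 0% in both KO libraries (3649 of the 7606 in the main fit) then had no spread of their own. The calls of those fits are therefore not read as holding without a WT library. After each library was scaled to the same mean flank coverage, the median difference was -5.59 points, with 2198 windows lower and 605 higher, so that 78.4% of the calls were falls, against 98.4% without scaling.

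In 42 windows the fall was complete, with 0% in both KO libraries and 100% in both WT libraries. These windows were short, with a median of 1174.5 gene-free bp. The first 5 by name were upstream of BC024978, downstream of Bmp8b, a bone morphogenetic protein gene, beside Camsap3, a microtubule minus-end protein gene, downstream of Cdk9, the kinase that releases paused polymerase, and downstream of Cep95, a centrosomal protein gene. Each had a difference of -100 points with SE 3.43 and an adjusted p of 0.00310 (limma). The libraries of a genotype did not differ in these windows, so the SE and p came from the spread of other windows. These windows also passed the filter through WT alone and could only fall, so the p is no support for the named genes. Without either KO library the adjusted p of each was 0.0619 or 0.0606.

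The largest rises lay beside Zfp991, Calm4, Duxf3, Gm4981 and LOC100504180, and 35 of the 80 rises had no WT peak in either library. Those 35, the named windows among them, passed the filter through KO alone and could only rise. Their adjusted p values are therefore no support for a rise at the named genes. Beside Zfp991, a zinc finger gene, 76.3% and 100% of 2789 gene-free bp were covered in KO and 0% and 0% in WT (limma adjusted p = 0.00795). Upstream of Calm4, a calmodulin-like gene, 43.8% and 67.3% were covered in KO and 0% and 0% in WT (limma adjusted p = 0.0186). The windows of Gm4981 and LOC100504180 are the same bases, with 53.3% and 32.7% in KO and 0% and 0% in WT. Duxf3 lies on chromosome 10 as they do, and in 5-kb windows its difference equalled that of LOC100504180 (48.3 points). These rises may therefore not be separate places. For Zfp991, Calm4, Duxf3, Gm4981 and LOC100504180 the call was lost without any 1 of the 4 libraries. Against IgG the call was also lost for Zfp991 and Duxf3, with limma adjusted p of 0.324 for each. The windows of Gm4981 and LOC100504180 were not among those tested against IgG, and only the call of Calm4 was kept (limma adjusted p = 0.0232).

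In the gene lists, tested downstream windows fell in 11 of 15 genes of 3′ end processing (median difference -33.51 points), 9 of 9 elongation genes (-45.75), 34 of 38 ribosomal protein genes (-42.58), 4 of 4 stromal and matrix genes (-42.16) and 1 of 1 bone and fat genes (-31.24), and none rose. Over all tested downstream windows 69.4% fell and the median was -33.83, so that the share of the 3′ end processing genes lay near that of all windows. In the order of the lists, the filter kept 15 of 19, 9 of 15, 38 of 45, 4 of 20 and 1 of 10 downstream windows. Some of those kept, such as the windows past Papola, Ell2, Rpl37, Rpl6 and Timp2, were at 0% in both KO libraries and could only fall. The counts therefore describe the windows kept and not the lists. Upstream windows fell in 3 of 3 genes of 3′ end processing, 1 of 2 elongation genes, 4 of 6 ribosomal protein genes, 1 of 3 stromal and matrix genes and 1 of 2 bone and fat genes, beside 59.1% of all tested upstream windows, whose median was -28.37.

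Setd2 itself (chr9:110532500-110618633, plus strand), the gene targeted in KO, was the nearest gene of no region, and a peak ran across its annotated end in each WT library. The span was covered for 0.690% and 1.70% in KO and 66.4% and 60.5% in WT. Its downstream window held 2896 gene-free bp, of which 0% and 23.2% were covered in KO and 92.2% and 85.5% in WT, a difference of -77.21 points with SE 9.99 (limma adjusted p = 0.0103). That call was lost without any 1 of the 4 libraries, against IgG (limma adjusted p = 0.0670) and after scaling (0.262). Its upstream window was covered for 0% and 0% in KO and 38.8% and 29.6% in WT (limma adjusted p = 0.0113), a call lost without KO replicate 1 or KO replicate 2. The upstream window passed the filter through WT alone and could only fall, so its p is no support for a fall there. It was not among those tested against IgG, at the median score or without WT replicate 1. Of the 3663 upstream bases nearer to Setd2 than to another gene, 0% and 0% were covered in KO and 0% and 35.9% in WT, so the coverage of WT replicate 1 in that window lay on bases nearer another gene. These peaks report the mark over the gene and do not measure the deletion.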

How the data were processed

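H3K36me3 ChIP-seq libraries of Setd2 KO and WT bone marrow stromal cells were analysed, 2 per genotype, with groups and replicate numbers from the sample titles. The submitters' processing notes name Bowtie2 and GRCm38, without a version of the aligner. For each H3K36me3 library the authors called peaks against the Input and, separately, against the IgG of its genotype, per the labels, which gave 8 lists. Peak names begin with MACS, per the files, but no version or setting is stated. Each peak carries a deposited score of unstated scale, with 13.01 as the lowest. It was used only to filter peaks within a list. The peaks of the WT lists behind the regions had median scores of 45.81 and 44.05, beside 36.08 and 36.87 for all peaks of WT replicates 1 and 2. Depth is unknown, so no counting interval can be given, and more reads would give more and wider peaks.

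Gene spans came from RefSeq (GRCm38.p6), with 47038 annotated and 20661 protein-coding autosomal genes. Strand came from the RefSeq promoter table, which matched 16456 of the protein-coding genes (79.6%). For the flank measures, each gene-free base within 10 kb of a protein-coding gene was given to its nearest gene edge. The windows tested with limma held the gene-free bases of the 10 kb beside each edge and were not cut in this way. Windows of neighbouring genes can therefore share bases. Windows with at least 1000 gene-free bp and a mean coverage of at least 10% were tested with limma 3.58.1 in R 4.3.3 (statmod 1.5.0; trend and robust options, percent scale, Benjamini-Hochberg adjustment over all tested windows, threshold 0.05). The filter keeps windows that were high in 1 genotype only, which had to differ. Whole-list measures had exact permutation tests. Intervals were handled with Python 3.11.15, numpy 2.4.6, pandas 2.3.3 and scipy 1.17.1, and figures drawn with matplotlib 3.10.9. Both steps were tested on simulated data.

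The regions, gene lists and tests were chosen with earlier results of these data known. Named were Setd2, Runx2, Col1a1 and Lbp; the 10 genes with the most region bases downstream and 5 upstream; the 5 longest regions and the 5 of at least 500 bp most covered in KO; the 5 largest falls and rises; and 2 genes per list. Other genes were chosen after their values were seen. Alternatives were the IgG lists, a score at or above the median, a width of 500 bp, a distance of 5 kb, gene spans subtracted rather than regions dropped, peaks within 1 kb merged, other filters, scaling, a replicate block and leaving out each library.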

Additional observations from a re-analysis of the deposited data

How the results depend on the processing

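The number of regions was 8897 as reported. It was 3991 with peaks at or above the median score, 5015 at a width of 500 bp, 2908 with peaks within 1 kb merged, and 14831 to 14927 without a WT replicate. The downstream share of bases (91.2%) was 94.2% at the median score, 93.0% at 500 bp, 93.5% within 5 kb, 92.9% with gene spans subtracted, 82.9% with peaks merged, and 79.5% to 80.3% without a WT replicate. Mean KO coverage of the regions (6.87%) was 4.51% against IgG, 4.09% at the median score, 5.73% within 5 kb and 10.1% with peaks merged. Without a replicate it ranged from 6.16% to 7.58%.

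Windows lower in KO numbered 5026 as reported, 3202 at the median score, 2277 at a mean coverage of at least 25% and 2198 after scaling. With no filter 3753 were lower, of 24797 tested in place of 7606. They ranged from 0 to 3141 without a replicate. Windows higher in KO numbered 80, then 31 against IgG, 18 at the median score, 36 with no filter, 4 at a mean coverage of at least 25%, and 605 after scaling. Of the 605, 61 were among the 80. The cause was not tested, except that fewer windows were tested under the stricter filter. With the replicate block 4618 were lower and 40 higher. The labels do not say what the replicate numbers share, and deviations of same-numbered libraries had a correlation of -0.028 over 7606 windows. Scaling reversed the difference downstream of D130040H23Rik (19.9 points), upstream of Gm32719 (36.5), upstream and downstream of LOC115488002 (21.9 and 0.337) and downstream of Sucla2 (0.0022), none past the threshold.

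Covered flank bases, the flank share of covered gene-free bases, downstream over upstream coverage, and covered downstream and upstream bases kept their direction between KO and WT in each alternative that was run for them. The score and the controls are the only measures of signal here, and the signal of a flank without a peak cannot be bounded.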
